A study of Mus musculus with 8 samples.

Results

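A group of 10 genes of vessel and blood cells was listed by name, and the genes were looked up by their gene symbol in a table of RNA-seq values. Of these 10 genes, 9 were found among the 36808 genes of the table: the vessel receptor genes Kdr, Flt1 and Tek, the endothelial surface and junction genes Pecam1 and Cdh5, and the blood transcription factor genes Tal1, Lmo2, Runx1 and Gata1. Hhip-as, an RNA named as an antisense partner of Hhip, was not found under that symbol, and the value of Hhip cannot stand for it. The genes were examined in mouse embryonic stem cells (ESCs) and in cells at day 5 of directed differentiation to spinal motor neurons (SMNs), in which LIF was withdrawn and retinoic acid and a hedgehog agonist were added. Neither blood nor vessel is the intended product of that protocol, so these genes are off the lineage that was being made.

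The 8 libraries came from 5 ESC lines, with 1 library per condition. E14 wild-type cells (129/Ola) were measured as ESCs and at day 5. CJ7 wild-type cells (129/S) were measured as ESCs only. Suz12delta cells (C57/BL6), which carry a truncated Suz12, and Eednull cells (BALB/cR1), which carry a point mutation of Eed, were measured as ESCs and at day 5. Suz12GT cells (129/Ola) carry a gene trap that joins SUZ12 to beta-galactosidase, and by the study's description keep part of their H3K27me3. They were measured at day 5, and a library of Suz12GT ESCs was not analysed here. All ESCs were grown in LIF and serum on irradiated mouse embryonic fibroblasts, which were removed by a brief plating step. Each mutation was represented by 1 line, and strain and genotype cannot be told apart for Suz12delta and Eednull cells compared with E14 cells. The CJ7 library was labelled as made in 1 batch with a library that the table names as Eednull ESCs, so Eednull and CJ7 ESCs give the comparison within a batch. No condition had a replicate, so no difference reported here has a replicate check or a test, and the spread behind any value is unknown.

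Values are FPKM, in which the fragments assigned to a gene are divided by the length of its transcripts and by the number of fragments mapped in that library. A log2 ratio is that of FPKM plus a pseudocount of 0.1, which understates the difference of genes with low values. It was taken where a gene reached 0.1 FPKM in at least 1 of the libraries compared and was above 0 in both. A gene was called higher or lower where this ratio was at least 1 or at most -1, a 2-fold difference. An exact 0 can be a failed estimate, so a gene at 0 is described as listed at 0 and has no ratio. In bulk RNA, fewer cells of a type and less RNA per cell cannot be told apart.

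KDR and FLT1 are receptors for vascular endothelial growth factors (VEGFs): KDR carries most of the growth signal in endothelial cells, whereas FLT1 binds VEGF tightly and is known as a decoy that limits it. Blood and endothelium arise together from mesoderm that expresses Kdr, under a group of transcription factors in which TAL1, LMO2 and GATA factors work in 1 complex and RUNX1 is needed for blood stem cells to emerge from endothelium. Many such lineage genes carry CpG-rich promoters, the class of sequence at which PRC2, the complex of EED, SUZ12 and an EZH methyltransferase, places the repressive mark H3K27me3 in ESCs.

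Promoter windows of 300 bases, from 250 bases before to 50 after a RefSeq start on GRCm38.p6, were at hand for 6 of the 9 genes. Kdr, Flt1, Tek and Gata1 had 1 window and Tal1 and Runx1 had 2 each, whereas none was used for Pecam1, Cdh5 and Lmo2. The windows below are shown because they span the range of CpG content among these genes. They are written 5′ to 3′ on the gene's strand, in lower case with every CpG dinucleotide in capitals. The Kdr window is chr5:75978406-75978705 on the minus strand, that of Flt1 is chr5:147725962-147726261 on the minus strand, and that of Tek is chr4:94739039-94739338 on the plus strand. The Runx1 windows, also on the minus strand, are chr16:92826025-92826324, here called distal, and chr16:92697280-92697579, here called proximal.
Kdr: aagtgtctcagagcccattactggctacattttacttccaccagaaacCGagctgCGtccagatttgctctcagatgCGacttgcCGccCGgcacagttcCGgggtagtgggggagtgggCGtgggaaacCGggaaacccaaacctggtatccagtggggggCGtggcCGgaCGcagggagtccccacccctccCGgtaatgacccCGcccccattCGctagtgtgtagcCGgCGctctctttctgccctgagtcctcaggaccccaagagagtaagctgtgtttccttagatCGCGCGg
Flt1: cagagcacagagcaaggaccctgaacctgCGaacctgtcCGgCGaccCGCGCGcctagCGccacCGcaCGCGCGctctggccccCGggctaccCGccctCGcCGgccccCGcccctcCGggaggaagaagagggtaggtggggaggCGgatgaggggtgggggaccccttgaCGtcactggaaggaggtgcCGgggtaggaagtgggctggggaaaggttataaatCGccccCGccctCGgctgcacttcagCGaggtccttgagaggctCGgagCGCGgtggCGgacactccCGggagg
Runx1 proximal: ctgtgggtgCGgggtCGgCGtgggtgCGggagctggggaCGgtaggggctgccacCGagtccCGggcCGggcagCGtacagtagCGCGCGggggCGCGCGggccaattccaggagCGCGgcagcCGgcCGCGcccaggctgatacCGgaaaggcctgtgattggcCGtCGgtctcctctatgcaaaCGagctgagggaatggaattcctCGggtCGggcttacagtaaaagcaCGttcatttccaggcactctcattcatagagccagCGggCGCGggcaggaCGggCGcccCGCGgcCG
Runx1 distal: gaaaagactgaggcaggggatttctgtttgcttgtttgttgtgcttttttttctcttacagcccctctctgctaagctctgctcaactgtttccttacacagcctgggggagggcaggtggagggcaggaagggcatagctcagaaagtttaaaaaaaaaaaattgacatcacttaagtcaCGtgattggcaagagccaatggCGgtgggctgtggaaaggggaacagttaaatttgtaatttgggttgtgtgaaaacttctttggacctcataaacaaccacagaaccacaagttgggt
Tek: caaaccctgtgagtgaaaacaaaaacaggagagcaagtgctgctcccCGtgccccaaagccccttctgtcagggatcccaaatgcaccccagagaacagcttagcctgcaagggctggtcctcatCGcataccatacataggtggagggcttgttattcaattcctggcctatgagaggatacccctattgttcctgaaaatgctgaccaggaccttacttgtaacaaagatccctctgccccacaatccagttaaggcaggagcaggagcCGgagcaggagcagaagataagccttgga

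The capitals show how unevenly CpG was spread over these genes. The proximal Runx1 window held 35 CpGs with a ratio of observed to expected CpG of 1.01, a ratio that 94.3% of the 32851 windows fell below. The Flt1 window held 29 CpGs at 0.780, above 77.4% of windows, and the Kdr window held 19 at 0.689, above 70.1%. The windows of Tal1, at chr4:115056176-115056475 and chr4:115057561-115057860 on the plus strand, gave 0.647 and 0.758. At the other end, the Tek window held 3 CpGs (0.149), the Gata1 window at chrX:7967861-7968160 on the minus strand held 4 (0.167) and the distal Runx1 window held 2 (0.137), against a median of 0.384 over all windows. Runx1 thus had windows at both ends of the range.

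**Figure D1:**
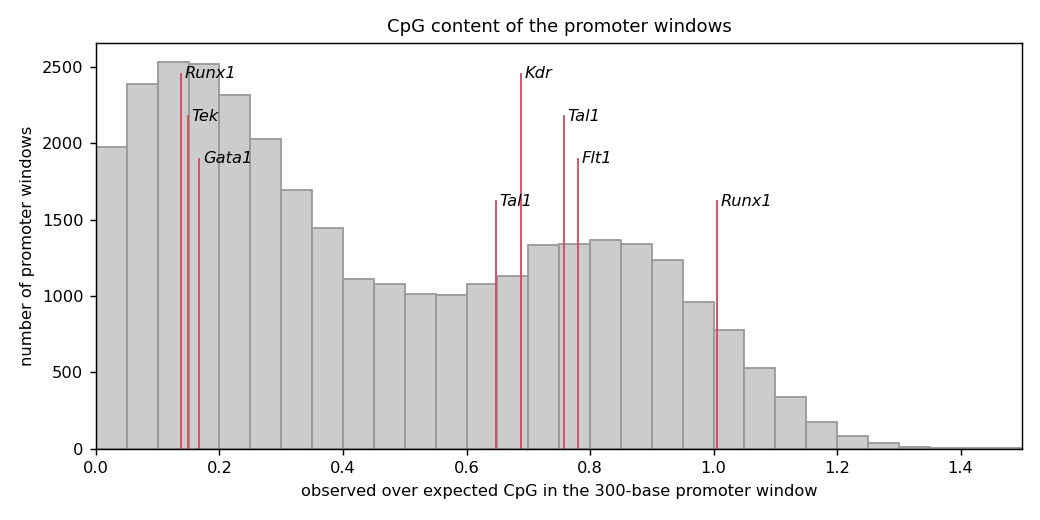
Ratio of observed to expected CpG in promoter windows of 300 bases. The histogram shows all 32851 RefSeq windows used, and the marks show the 8 windows of 6 of the genes, which lie between 0.137 (distal Runx1) and 1.01 (proximal Runx1).

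Letters of binding motifs were counted in the same windows on both strands, as a description. GATAA, read by GATA factors, was found in 1 Tal1 window and in the Tek window, and in 25.4% of all windows. TGTGGT, read by RUNX factors, occurred 2 times in the distal Runx1 window and in none of the other 7 windows, against 16.8% of all windows. CCGGAA, the core read by ETS factors, was found once in the Kdr window and once in the proximal Runx1 window, against 14.9% of all windows. CANNTG, the E-box read by TAL1 and its partners, was present in 5 of the 8 windows and in 72.3% of all windows.

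The libraries differed in more than genotype. Suz12 was at 6.21 FPKM in Suz12delta ESCs against 41.3 in E14 ESCs, but at 11.6 against 16.2 at day 5. Neither Eed (42.4 FPKM in Eednull ESCs, 32.7 in E14 ESCs) nor Suz12 in the gene trap (10.3 at day 5) can check a point mutation or a trap from its level. The FPKM sums ran from 389165 to 797748, and the number of genes listed at 0 ran from 11172 in Eednull ESCs to 14876 in E14 cells at day 5. Among genes that 5 or more other libraries had at 1 FPKM or above, 91 were listed at 0 in E14 cells at day 5, and 29 to 129 in the other libraries. The 8 pluripotency markers summed to 506.2 to 1153 FPKM in the 4 ESC libraries and to 1.3 to 31.7 at day 5. The 9 spinal neural markers found summed to 337.1 FPKM at day 5 in E14 and 576.5 in Suz12GT cells, against 25.8 in Suz12delta and 23.9 in Eednull cells. The label of motor neuron cells is thus carried by E14 and Suz12GT cells at this day and little by the other lines. In the 4 ESC libraries the same sum was 47.0 to 95.4 FPKM. Stmn2 (203.3 FPKM) and Nefl (261.1) were the largest values in Suz12GT cells. Both were called higher there than in E14 cells, whereas Olig2 and Pax6 were called lower. Tubb3, a neuronal tubulin gene of that list, was listed at 0 in all 8 libraries.

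Kdr (chromosome 5 of NCBI build 37, 76328852 to 76374483, minus strand) stood out at day 5 in Suz12delta and Eednull cells. In ESCs it was at 0.119 FPKM in E14, 0.241 in CJ7, 0.494 in Suz12delta and 0.671 in Eednull cells, all under 1 FPKM. At day 5 it was at 0.235 FPKM in E14 and 0.897 in Suz12GT cells, against 8.45 in Suz12delta and 7.49 in Eednull cells. Suz12delta and Eednull cells at day 5 were the only libraries in which this main VEGF receptor gene passed 1 FPKM.

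Flt1 (chromosome 5, 148373180 to 148537587, minus strand) had another order. It was at 10.2 FPKM in Suz12delta and 9.90 in Eednull ESCs, against 1.97 in E14 and 1.40 in CJ7 ESCs. At day 5 it was at 0.0131 FPKM in E14 cells and at 1.31 in Suz12GT, 1.13 in Suz12delta and 1.03 in Eednull cells. The 3 mutant lines were thus within 1.03 to 1.31 FPKM of Flt1 at day 5, whereas Kdr ran from 0.897 to 8.45 FPKM in the same libraries. Both mutant ESC lines had more Flt1 than at day 5, whereas both had less Kdr.

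Tek (chromosome 4, 94405980 to 94541667, plus strand) encodes TIE2, the receptor for angiopoietins. It was at 1.29 FPKM in E14, 1.07 in CJ7, 0.384 in Suz12delta and 1.58 in Eednull ESCs. In day 5 cells it was listed at 0 in E14 and was at 1.10 FPKM in Suz12GT, 1.14 in Suz12delta and 0.424 in Eednull cells. The mutant lines at day 5 were within the range of the ESCs, and E14 cells at day 5 stood apart at 0.

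Pecam1 (chromosome 11, 106515531 to 106611942, minus strand), which encodes the adhesion molecule CD31 of endothelium, platelets and also mouse ESCs, had its highest values in ESCs. These were 12.9 FPKM in E14, 21.2 in CJ7, 3.72 in Suz12delta and 8.51 in Eednull cells. In day 5 cells it was listed at 0 in E14 and was at 0.436 FPKM in Suz12GT, 0.793 in Suz12delta and 0.441 in Eednull cells. Both wild-type ESC lines were above both mutant ESC lines, as they were in summed pluripotency markers.

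Cdh5 (chromosome 8, 106625525 to 106668402, plus strand) encodes VE-cadherin, the cadherin of endothelial junctions. It was at 0.0144 FPKM in E14, 0.148 in CJ7, 0.0912 in Suz12delta and 0.598 in Eednull ESCs. Values at day 5 were 0.0317 FPKM in E14 cells and 1.18 in Suz12GT, 2.11 in Suz12delta and 1.02 in Eednull cells. Both E14 libraries were under 0.1 FPKM, and the 3 mutant libraries at day 5 were the only ones at 1 FPKM or more.

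Tal1 (chromosome 4, 114729031 to 114744360, plus strand), which encodes a bHLH factor at the start of blood formation, separated Suz12GT cells from the other mutants. In ESCs it was at 0.0828 FPKM in E14, 0.188 in CJ7, 0.0685 in Suz12delta and 0.923 in Eednull cells. At day 5 it was at 0.143 FPKM in E14 and 0.106 in Suz12GT cells, against 2.12 in Suz12delta and 1.61 in Eednull cells. Kdr and Tal1 were alike in that 1 FPKM was passed only in Suz12delta and Eednull cells at day 5.

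Lmo2 (chromosome 2, 103798143 to 103822035, plus strand) encodes the LIM protein that bridges TAL1 and GATA factors. It was at 0.518 FPKM in E14, 0.639 in CJ7, 1.49 in Suz12delta and 2.71 in Eednull ESCs, and at 0.420 in E14, 1.67 in Suz12GT, 3.21 in Suz12delta and 2.82 in Eednull cells at day 5. The 5 mutant libraries were all above the 3 wild-type libraries. It overlaps an antisense gene, 4931422A03Rik, which was at 0.131 to 0.616 FPKM and highest in E14 cells at day 5. Whether reads were counted by strand is not given in the sources used here, so reads of the pair cannot be told apart.

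Runx1 (chromosome 16, 92601712 to 92826311, minus strand), a core-binding factor gene of blood stem cell emergence, was highest in Suz12GT cells at day 5. It was at 7.05 FPKM there, against 0.199 in E14, 1.07 in Suz12delta and 0.757 in Eednull cells. In ESCs it was at 0.775 FPKM in E14, 1.24 in CJ7, 5.76 in Suz12delta and 3.06 in Eednull cells. In this the hypomorphic line at day 5 resembled the mutant ESCs more than the mutant cells of its own day, and this rested on 1 library. A lincRNA on the other strand, Gm16801, lies within Runx1, with the same limit as for Lmo2.

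Gata1 (chromosome X, 7536386 to 7555197, minus strand), which encodes the main erythroid and megakaryocyte GATA factor, was low in every library. In ESCs it was at 0.134 FPKM in E14, 0.318 in CJ7, 0.247 in Suz12delta and 0.0760 in Eednull cells. At day 5 it was listed at 0 in E14 and Suz12GT cells and was at 0.155 FPKM in Suz12delta and 0.175 in Eednull cells. Its highest value, 0.318 FPKM, was that of a wild-type line.

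**Figure D2:**
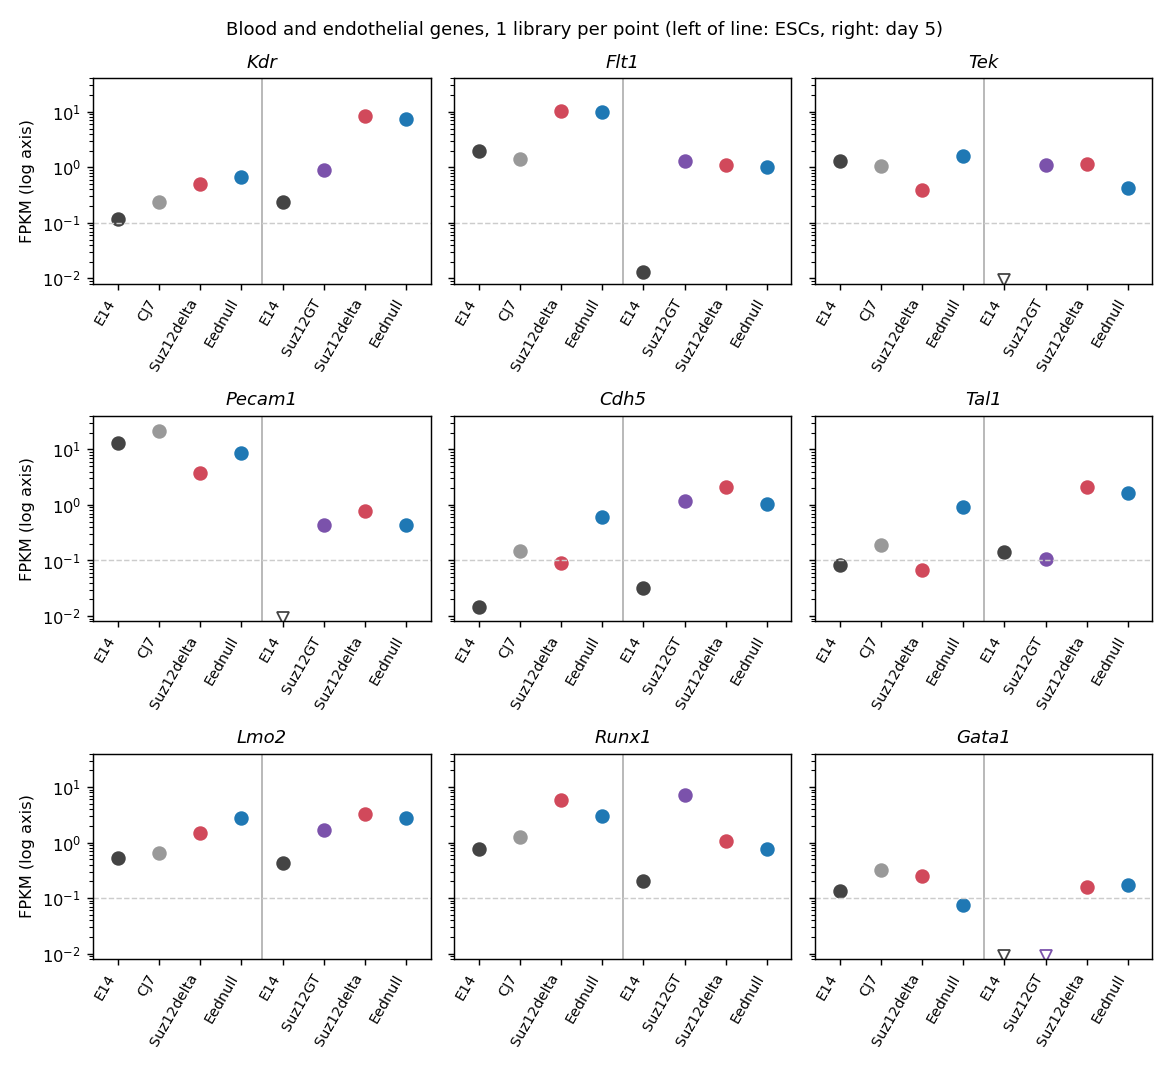
FPKM of the 9 genes in each of the 8 libraries, 1 point per library, so there are no error bars, on a log axis with open triangles for genes listed at 0 and a dashed line at 0.1 FPKM. Kdr is highest in Suz12delta (8.45) and Eednull (7.49) cells at day 5, Flt1 in Suz12delta (10.2) and Eednull (9.90) ESCs, Pecam1 in CJ7 ESCs (21.2) and Runx1 in Suz12GT cells at day 5 (7.05).

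Suz12delta ESCs were compared with E14 ESCs to see what a truncated SUZ12 leaves of these genes before differentiation. Of the 9 genes, 7 could be compared, and 4 were called higher: Runx1 with a log2 ratio of 2.74, Flt1 with 2.31, Kdr with 1.44 and Lmo2 with 1.37. Over all genes compared, 13.7% were called higher and 21.4% lower. Pecam1 (-1.77) and Tek (-1.52) were the 2 genes called lower, and Gata1 had 0.57. Cdh5 and Tal1 did not reach 0.1 FPKM in either library. The median of the 7 ratios was 1.37, against -0.32 over all genes compared. When the libraries were scaled to the same 75th percentile, that median over all genes became 0.03, and the share of calls that were higher went from 39.1% to 61.6%; the 6 calls on these genes kept their direction. With a pseudocount of 1, Flt1, Runx1 and Pecam1 kept their calls, and Kdr (0.42), Lmo2 (0.72) and Tek (-0.72) did not.

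Against CJ7 ESCs, whose own ratios to E14 ran from -0.47 for Flt1 to 1.11 for Cdh5, Suz12delta ESCs kept Flt1 (2.78), Runx1 (2.13), Lmo2 (1.11), Tek (-1.27) and Pecam1 (-2.48) as called. Kdr had 0.80 and was not called. Of all genes compared with CJ7 ESCs, 17.2% were higher and 18.6% lower in Suz12delta ESCs. Between the wild-type lines, Cdh5 was the only one of the 9 genes called, on values of 0.148 and 0.0144 FPKM. Over all genes, 6.69% were called higher and 11.2% lower in CJ7 than in E14 ESCs, a split of 37.5% higher among the calls that became 54.8% on the same scaling.

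Eednull ESCs also had higher Flt1, Lmo2, Runx1 and Kdr than E14 ESCs. All 9 genes were compared, and 6 were called higher: Cdh5 at 2.61, Tal1 at 2.48, Flt1 at 2.27, Lmo2 at 2.18, Runx1 at 1.85 and Kdr at 1.82. Of all genes, 11.5% were called higher and 9.71% lower. None of the 9 was called lower, with Pecam1 at -0.60, Gata1 at -0.41 and Tek at 0.27. Cdh5 and Tal1 passed the minimum only through Eednull ESCs and so had to differ. The median was 1.85, against -0.06 over all genes (0.10 after scaling, with the higher share of calls going from 54.2% to 65.4%). With a pseudocount of 1, the genes that kept their calls were Flt1, Lmo2 and Runx1, the other ratios being 0.58 for Kdr, 0.66 for Cdh5 and 0.83 for Tal1.

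CJ7 ESCs give the comparison within the batch. Against them, Eednull ESCs had Flt1 at 2.74, Lmo2 at 1.92, Tal1 at 1.83, Cdh5 at 1.5, Runx1 at 1.24 and Kdr at 1.18, again 6 higher, where 11.8% of all genes were. Pecam1 (-1.31) and Gata1 (-1.25) were called lower, where 5.71% of all genes were. Gata1, at 0.0760 FPKM in Eednull and 0.318 in CJ7 ESCs, passed the minimum only through CJ7 ESCs and so could only be lower. These comparisons share wild-type libraries, as do all ratios to E14, and so are not independent of each other.

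Feeder and differentiated cells could contribute RNA to the ESC libraries, and their markers were not equal. The 12 fibroblast markers summed to 100.1 FPKM in E14, 121.8 in CJ7, 631.5 in Suz12delta and 283.3 in Eednull ESCs, and all 12 were called higher in Suz12delta and 5 in Eednull than in E14 ESCs. The 12 extraembryonic endoderm markers summed to 40.8, 35.7, 111.8 and 175.9 FPKM in the same order. The 8 pluripotency markers summed to 1153, 949.5, 506.2 and 899.1 FPKM, with 5 called lower in Suz12delta and 3 in Eednull ESCs. Over all genes, 13.7% were called higher and 21.4% lower in Suz12delta, and 11.5% and 9.71% in Eednull ESCs. The part of these markers in the higher Flt1, Runx1, Lmo2 and Kdr was not tested.

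At day 5 the 3 mutant lines were compared with E14 cells to see which of these genes appear when cells are directed to motor neurons. Tek, Pecam1 and Gata1 were listed at 0 in E14 cells, which left 6 of the 9 genes. In Suz12delta cells all 6 were called higher: Kdr at 4.67, Cdh5 at 4.07, Flt1 at 3.44, Tal1 at 3.19, Lmo2 at 2.67 and Runx1 at 1.97. In Eednull cells all 6 were called higher too: Kdr at 4.50, Flt1 at 3.32, Cdh5 at 3.09, Tal1 at 2.82, Lmo2 at 2.49 and Runx1 at 1.52. Over all genes compared, 20.9% were called higher in Suz12delta and 16.8% in Eednull cells, and 7.76% and 9.55% lower. The medians over these 6 genes were 3.31 and 2.95, against 0.21 and 0.05 over all genes (0.06 for Suz12delta cells after scaling). Flt1 and Cdh5 passed the minimum only through the mutant cells and so had to differ, and the genes left out for a 0 in E14 cells are those with no ratio rather than with no difference.

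Suz12GT cells had a narrower set. Of the 6 genes, 5 were called higher: Runx1 at 4.58, Flt1 at 3.64, Cdh5 at 3.28, Lmo2 at 1.77 and Kdr at 1.57. Tal1 had -0.24. Of all genes, 13.2% were called higher and 2.42% lower. The median was 2.52, against 0.12 over all genes. Flt1 and Cdh5 passed the minimum only through Suz12GT cells and so had to differ. This leaves 3 of the 5 calls at the minimum in both libraries, and the median is in part set by the minimum. With a pseudocount of 1, Kdr (0.62) and Lmo2 (0.91) lost the call in Suz12GT cells, Runx1 lost it in Suz12delta (0.79) and Eednull (0.55) cells, and Cdh5 lost it in Eednull cells (0.97). Suz12GT and E14 cells share a strain, so this comparison is the one in which strain does not differ.

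**Figure D3:**
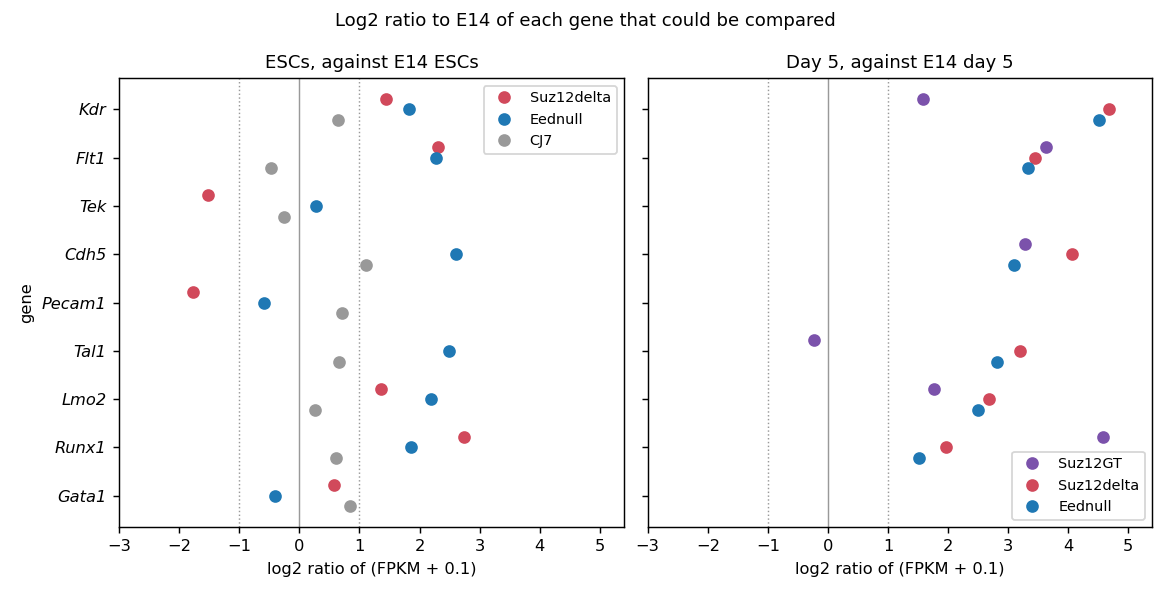
Log2 ratio (pseudocount 0.1) of each gene to the E14 library of the same day, in Suz12delta, Eednull and CJ7 ESCs (left) and in the 3 mutant lines at day 5 (right), 1 library per condition. Dotted lines mark a 2-fold difference, and genes without a ratio have no point. At day 5 all plotted ratios are above 1 except Tal1 in Suz12GT cells (-0.24), and in ESCs Pecam1 and Tek lie below -1 in Suz12delta cells.

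The mutant lines were also compared with each other at day 5. Relative to Suz12GT cells, Suz12delta cells had a log2 ratio of 3.43 for Tal1, 3.10 for Kdr and -2.61 for Runx1, and these 3 were the genes called among 8 compared. The other 5 ran from -0.20 for Flt1 to 0.90 for Lmo2. Of all genes, 15.8% were higher and 10.2% lower in Suz12delta cells. Eednull cells relative to Suz12GT cells had 3.06 for Tal1, 2.93 for Kdr, -3.06 for Runx1 and -1.19 for Tek, the 4 genes called among 8, where 11.4% of all genes were higher and 12.6% lower. Between Eednull and Suz12delta cells, Tek (-1.24) was the only one of 9 genes called, where 6.59% of all genes were called lower. The share of calls that were higher was 23.3% there and 34.9% after scaling.

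Markers of other cells differed at day 5 as well. The 12 fibroblast markers summed to 2.7 FPKM in E14, 17.6 in Suz12GT, 120.0 in Suz12delta and 64.6 in Eednull cells. The 12 extraembryonic endoderm markers summed to 44.7, 152.2, 146.4 and 153.1 FPKM, and the pluripotency markers to 1.3, 18.5, 31.7 and 17.9. Of the 8 spinal neural markers compared, all 8 were called lower in Suz12delta and in Eednull cells, and 2 were called lower and 2 higher in Suz12GT cells. Over all genes, 7.76% were lower in Suz12delta and 9.55% in Eednull cells, and 2.42% were lower and 13.2% higher in Suz12GT cells. At day 5, Kdr and Tal1 passed 1 FPKM only in Suz12delta and Eednull cells, the libraries with little neural marker RNA. In Suz12GT cells, Kdr was still called higher than in E14 cells, at 0.897 against 0.235 FPKM, and Tal1 was not. The part of cell type makeup in the levels of Kdr and Tal1 was not tested.

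The change from ESC to day 5 was taken within each line. In E14 cells 5 genes could be compared, and Flt1 (-4.19) and Runx1 (-1.55) were lower at day 5, where 21.3% of all genes were. Flt1, at 0.0131 FPKM at day 5, passed the minimum only through the ESCs and so could only be lower. Kdr (0.61), Tal1 (0.41) and Lmo2 (-0.25) were not called, and no gene was called higher, against 15.3% of all genes. Tek went from 1.29 FPKM, Pecam1 from 12.9 and Gata1 from 0.134 to being listed at 0. In Suz12delta cells Kdr (3.85), Tal1 (3.72), Cdh5 (3.53), Tek (1.35) and Lmo2 (1.06) were higher at day 5 and Flt1 (-3.06), Runx1 (-2.32) and Pecam1 (-2.10) lower, where 24.6% of all genes were called higher and 9.65% lower. The share of calls that were higher went from 71.8% to 51.1% on scaling, and the 8 calls kept their direction. Cdh5 and Tal1 passed the minimum only through day 5.

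Eednull cells had a different balance over differentiation. Kdr (3.30) was the 1 gene called higher at day 5, where 16.2% of all genes were, and Pecam1 (-3.99), Flt1 (-3.14), Runx1 (-1.88) and Tek (-1.68) were lower, where 16.6% were. Cdh5 (0.69), Tal1 (0.74) and Lmo2 (0.06) were already at 0.598, 0.923 and 2.71 FPKM in Eednull ESCs. By the label on batches, these ESCs and the day 5 cells may come from different batches, so batch and day cannot be told apart in this line. In all 3 lines measured on both days, Flt1 and Runx1 were lower at day 5 than in ESCs, and Kdr was called higher in Suz12delta and Eednull cells. In E14 cells, Flt1 was compared only through the ESCs.

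**Figure D4:**
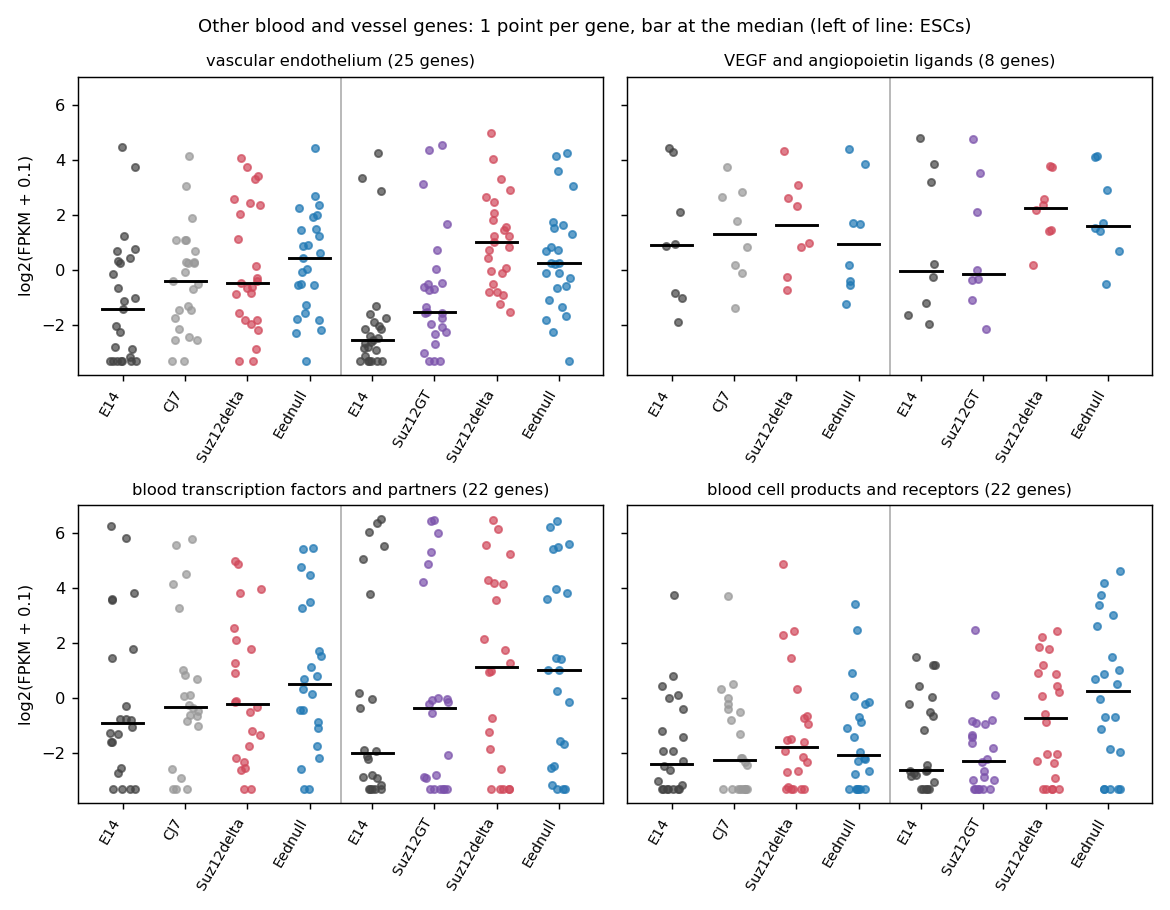
Log2 of FPKM plus 0.1 for 4 lists of related genes in each of the 8 libraries, with 1 point per gene and a bar at the median of the list. For the 25 endothelial genes the median value at day 5 was 0.0702 FPKM in E14 and 1.89 FPKM in Suz12delta cells, and for the 22 blood products and receptors it was 0.0617 FPKM in E14 and 1.10 FPKM in Eednull cells.

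Other genes of blood and vessel were counted in lists, beside the shares of all genes. At day 5 these shares, relative to E14 cells, were 20.9% higher and 7.76% lower in Suz12delta, 16.8% and 9.55% in Eednull and 13.2% and 2.42% in Suz12GT cells, and the median log2 ratios over all genes were 0.21, 0.05 and 0.12. Of 25 endothelial genes, 17 of 19 compared were called higher in Suz12delta cells and none lower, 15 of 18 in Eednull cells and none lower, and 9 of 16 in Suz12GT cells and none lower. The medians were 2.85, 2.22 and 1.06. Of the genes called higher, 9 in Suz12delta, 9 in Eednull and 6 in Suz12GT cells were under 0.1 FPKM in E14 cells and were compared only through the mutant library in which they were high, so the direction of these counts and the medians are in part set by the minimum. Those with at least 0.1 FPKM in E14 cells were 8 higher of 10 compared, 6 of 9 and 3 of 9. Cldn5, which encodes the endothelial tight junction protein claudin-5, was at 0.123 FPKM in E14, 0.498 in Suz12GT, 6.15 in Suz12delta and 3.22 in Eednull cells. Fli1, an ETS factor gene of blood and vessel, was at 0.0123, 0.198, 2.26 and 2.74 FPKM in the same order, and Cd34, a surface protein gene of blood progenitors and endothelium, was listed at 0 and then at 0.523, 5.36 and 3.0 FPKM. Eng, which encodes a TGF-beta co-receptor, was at 0.0861, 0.540, 4.07 and 1.5 FPKM, but at 6.33 to 13.3 in ESCs. As for Pecam1, an endothelial list gene can be high in ESCs. In ESCs, 9 of 17 were higher and 3 lower in Suz12delta and 10 of 18 higher and 1 lower in Eednull than in E14 cells, where 13.7% of all genes were higher and 21.4% lower in Suz12delta and 11.5% and 9.71% in Eednull ESCs. Of those called higher, 2 in each line were compared only through the mutant library. From ESC to day 5 in E14 cells, 8 of 12 were lower and 1, Nrp1, was higher (1.5 to 7.25 FPKM), where 21.3% of all genes were lower and 15.3% higher. Eng, at 0.0861 FPKM at day 5, was compared only through the ESCs, so the count of lower genes is in part set by the minimum.

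Genes of the VEGF and angiopoietin families showed no single direction. Of 8 such genes, all compared at day 5, 5 were higher and 2 lower in Suz12delta cells, 5 higher and 1 lower in Eednull cells and 1 each in Suz12GT cells. Over all genes 20.9% were higher and 7.76% lower in Suz12delta and 16.8% and 9.55% in Eednull cells. The 1 higher of 8 in Suz12GT cells was near the 13.2% of all genes, and 2.42% of all genes were lower there. Among those higher in Suz12delta (4.02) and Eednull (3.17) cells was Angptl4, an angiopoietin-like gene that is not counted here as a ligand of these receptors. The medians were 1.68, 1.34 and -0.13. Pgf, which encodes the placental growth factor that binds FLT1, was at 0.332 FPKM in E14, 0.903 in Suz12GT, 5.87 in Suz12delta and 7.44 in Eednull cells. Angpt2, which encodes an angiopoietin known to oppose TIE2 signals, was at 0.729, 0.689, 4.40 and 3.15 FPKM, whereas Angpt1, which encodes the activating ligand, was at 8.97, 4.24, 2.62 and 1.49 FPKM. Angpt1 was thus highest in E14 cells, and Angpt2 in Suz12delta and Eednull cells. Vegfa itself was at 13.1 to 28.0 FPKM at day 5 and 7.06 to 20.7 in ESCs.

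Of 22 blood transcription factor and partner genes, 9 of 16 compared were called higher and 1 lower in Suz12delta cells at day 5, 8 of 16 higher and none lower in Eednull cells, and 4 of 13 higher and none lower in Suz12GT cells, where 20.9%, 16.8% and 13.2% of all genes were higher. The medians were 1.17, 1.03 and 0.40, and 4 of the 9 in Suz12delta and 3 of the 8 in Eednull cells were compared only through the mutant library. Gata2, which encodes the GATA factor of blood progenitors, was at 0.131 FPKM in E14, 0.591 in Suz12GT, 11.7 in Suz12delta and 12.0 in Eednull cells, and Gata3 was at 0.118, 0.772, 17.8 and 15.7 FPKM. Etv2, an ETS factor gene at the root of blood and endothelium, was at 0.0448, 0.0439, 3.27 and 0.797 FPKM. Both GATA genes are also expressed in trophoblast, and trophoblast markers, a list added after values were seen, summed to 0.3 FPKM in E14, 3.7 in Suz12GT, 59.7 in Suz12delta and 59.9 in Eednull cells at day 5 and to 2.6 to 47.6 FPKM in ESCs. Gata3 is a member of that list, and Krt7, a keratin gene of it, was at 0.181, 1.57, 27.8 and 32.7 FPKM. The part of trophoblast-marker RNA in Gata2, Gata3, Kdr or Flt1 was not tested. Zfpm1 and Cbfa2t3, partners of GATA1 and TAL1, were listed at 0 in all 8 libraries.

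Blood products gave a pattern of their own among the day 5 libraries. Of 22 such genes, 13 of 16 compared were called higher and none lower in Eednull cells, 6 of 14 higher and none lower in Suz12delta cells, and none of 10 higher and 5 lower in Suz12GT cells. Over all genes 16.8%, 20.9% and 13.2% were higher, and 2.42% were lower in Suz12GT cells. The medians were 2.27, 0.95 and -0.75, and 5 of the 13 in Eednull and 3 of the 6 in Suz12delta cells were compared only through the mutant library. The embryonic globin genes Hba-x and Hbb-y were at 2.21 and 2.19 FPKM in E14, 0.455 and 0.275 in Suz12GT, 4.59 and 3.31 in Suz12delta, and 24.8 and 18.3 in Eednull cells. The near-identical adult alpha-globin genes Hba-a1 and Hba-a2, whose split of reads is uncertain, were at 13.5 and 10.4 FPKM in Eednull cells and at most 1.74 in the other day 5 libraries. Klf1, which encodes an erythroid factor that works with GATA1, stayed at or under 0.552 FPKM in all 8 libraries, and Gata1 was at 0.175 FPKM in Eednull cells. Ptprc, which encodes the pan-leukocyte protein CD45, was listed at 0 in all 4 day 5 libraries. Tal1 (1.61 FPKM), Lmo2 (2.82) and Gata2 (12.0) were above E14 in the same Eednull cells. Tal1 and Lmo2 were also above E14 in Suz12delta cells, at 2.12 and 3.21 FPKM, as was Gata2. Hba-x (4.59 FPKM) and Hbb-y (3.31) in Suz12delta cells were above E14 cells and below Eednull cells. Gata1 was at 0.155 FPKM in Suz12delta cells, near its Eednull value. The part of these factors in the globin levels was not tested.

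**Figure D5:**
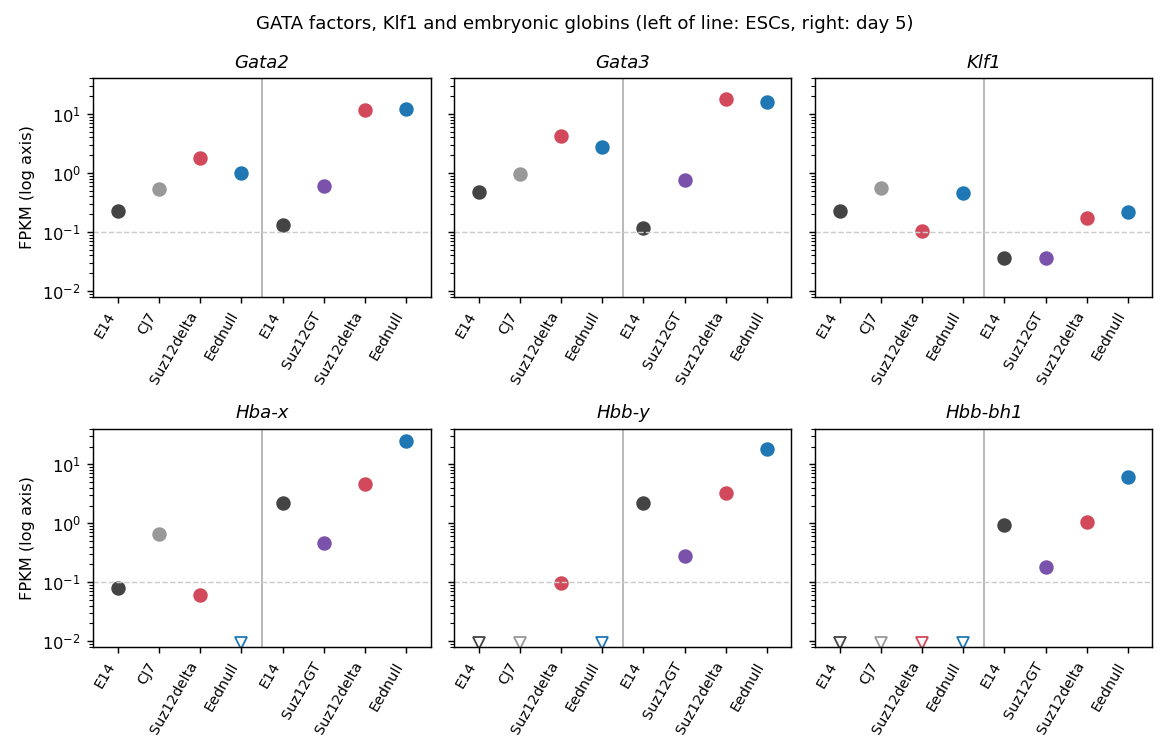
FPKM on a log axis of Gata2, Gata3, Klf1 and 3 embryonic globin genes, 1 point per library, with open triangles for genes listed at 0 and a dashed line at 0.1 FPKM. Hba-x (24.8) and Hbb-y (18.3) are highest in Eednull cells at day 5, Gata2 and Gata3 are at 11.7 to 17.8 FPKM in Suz12delta and Eednull cells at day 5, and Klf1 stays at or under 0.552 FPKM.

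Mesoderm, from which blood and vessel arise, was counted in a list of 12 genes, of which 7 of 8 compared were called higher in Suz12delta and 8 of 8 in Eednull cells at day 5, with 2 of 5 in Suz12GT cells and none lower in any, where 20.9%, 16.8% and 13.2% of all genes were higher. Only 4 of these genes had at least 0.1 FPKM in E14 cells, and 3 of the 7 in Suz12delta and 4 of the 8 in Eednull cells were compared only through the mutant library. The medians, 2.67, 2.02 and 0.56, rest on the same genes. Pdgfra, a receptor gene of mesoderm that is also expressed in extraembryonic endoderm and fibroblasts, was at 0.135 FPKM in E14, 2.23 in Suz12GT, 11.7 in Suz12delta and 11 in Eednull cells. Hhip, which encodes a decoy of hedgehog ligands and was measured here only as the sense gene (chromosome 8, 82490014 to 82581905, minus strand), was at 4.78, 2.46, 8.41 and 6.01 FPKM. In ESCs Hhip was at 1.23 FPKM in E14, 0.578 in CJ7, 0.440 in Suz12delta and 0.181 in Eednull cells, so at day 5 its level in the mutants lay on both sides of E14. Of the 10 hedgehog pathway genes at day 5, 4 were called higher in Suz12delta, 2 in Eednull and 1 in Suz12GT cells, with 3 lower in Suz12GT cells. The counts in Eednull and Suz12GT cells were near the 16.8% and 13.2% of all genes called higher, and 2.42% of all genes were called lower in Suz12GT cells. The medians were 0.85, 0.39 and -0.36.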

How the data were processed

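RNA-seq values of 8 libraries were used, 1 per condition. The authors aligned reads with TopHat 1.3.2 and Bowtie 0.12.7 to NCBI build 37 and deposited FPKM values made with Cufflinks 1.2.1 and Cuffdiff on an Ensembl-based annotation, with corrections for sequence bias and for reads that map to several places. Such corrections move values of paralogs and of short or overlapping genes. All value columns were mapped to a condition by name. Strand use in counting is not given in the sources used here.

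The genes and the lists of related genes were chosen with earlier results of these data known, and the trophoblast list, Klf1 and Ptprc were picked after their values here were seen. Each of the other list genes named was within the 3 highest or 3 lowest ratios of its list in a comparison, at 1 FPKM or more in a library, or was at 0 throughout. Lists of blood, vessel, mesoderm and hedgehog genes are described by counts and day 5 medians beside those over all genes, and marker lists of other cells by counts or summed FPKM. The planned test was a ratio without a p-value, since no condition was replicated. Low values were searched for steps of single reads. At most 2.28% of the genes under 0.1 FPKM shared the commonest ratio, so reads could not be recovered, the depth is unknown and no counting interval is given.

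Gene coordinates are from GENCODE vM1, which held 36104 of the 36808 gene identifiers. Promoter windows are RefSeq windows on GRCm38.p6, another build, and were joined by symbol. Ratios were also computed with 0.01 or 1 as the pseudocount, with the minimum raised to 1 FPKM or dropped, with genes listed at 0 included, after equalising the 75th percentile of the 17842 genes that no library listed at 0, and with CJ7 in place of E14 ESCs. The calling of ratios was tested on simulated data made from genes at 1 FPKM or more in E14 ESCs. Of the 9 genes, 3 reached that level in E14 ESCs and none in E14 cells at day 5. The simulation thus does not cover the size of ratios at lower values. Python 3.11.15, NumPy 2.4.6, pandas 2.3.3 and matplotlib 3.10.9 were used. H3K27me3 and bisulfite data were not analysed here.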

Additional observations from a re-analysis of the deposited data

Results flagged for a closer look

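The following differences were picked out because 2 lines had ratios of at least 2-fold in opposite directions under the same comparison. With 1 library per condition, none of these differences between lines was tested.

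From ESC to day 5, Tek had a log2 ratio of 1.35 in Suz12delta and -1.68 in Eednull cells. Cldn5 had -1.51 in E14, 4.21 in Suz12delta and 1.12 in Eednull cells, and Gata3 had -1.41, 2.05 and 2.45. Etv2 had -1.75 in E14 cells, where it passed the minimum only through the ESCs, and 2.07 in Suz12delta cells. Pdgfra had -1.70 in E14 and 1.76 in Eednull cells, and Krt7 had -1.28 in E14 and 2.72 in Eednull cells. Tek was thus the 1 gene of the 9 to be picked out, on values of 0.384 to 1.58 FPKM.

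Relative to E14 cells at day 5, the globin genes went opposite ways in Suz12GT and Eednull cells. Hba-x had a log2 ratio of -2.06 in Suz12GT, 1.02 in Suz12delta and 3.43 in Eednull cells, and Hbb-y had -2.61 in Suz12GT and 3.0 in Eednull cells. Hba-a1 had -1.15, 1.09 and 3.97 in the order of Hba-x, and Hba-a2 had -1.14 in Suz12GT and 3.89 in Eednull cells.

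Lyz2, the lysozyme gene of macrophages, had a log2 ratio to E14 ESCs of 1.63 in Suz12delta and -4.42 in Eednull ESCs.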

How the results depend on the processing

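No call on any of the 9 genes reversed under any alternative run, and scaling or dropping the minimum left every count of calls within 1.5-fold. With a pseudocount of 1, genes called higher were 2 in place of 4 in Suz12delta ESCs, 3 in place of 6 in Eednull ESCs and 3 in place of 5 in Suz12GT cells at day 5, each against E14, 3 in place of 5 in Suz12delta cells from ESC to day 5 and 0 in place of 1 in CJ7 ESCs. Genes called lower were 1 in place of 2 in Suz12delta ESCs and 1 in place of 2 in E14 cells from ESC to day 5. A larger pseudocount by construction shrinks ratios of low values. With a minimum of 1 FPKM, which leaves fewer genes, 3 in place of 6 were higher in Eednull ESCs, 1 in place of 2 lower in E14 cells over differentiation and 0 in place of 1 higher in CJ7 ESCs. With a pseudocount of 0.01, 2 in place of 1 were higher in Eednull cells over differentiation and 3 in place of 1 in CJ7 ESCs. Comparing genes listed at 0 made 5 in place of 2 lower in E14 cells over differentiation. Against CJ7, 2 in place of 0 were lower in Eednull ESCs, of which Gata1 was compared only through CJ7 ESCs, and the cause was not tested. Of the recomputed ratios of single genes, 325 moved by less than 1.5-fold and 67 by more. Changing the minimum or including genes listed at 0 cannot move the ratio of a gene already compared. Many of the 325 were therefore fixed in advance. Those moved by less and by more were 24 and 42 with a pseudocount of 1, and 51 and 15 with 0.01. They were 6 and 10 with CJ7 in place of E14 ESCs, and 66 and none on scaling. No paired analysis was possible because each condition had 1 library. The unknown depth limits every value near 0.1 FPKM.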

Other observations

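Some platelet and macrophage genes had their highest ESC values in the Suz12delta library. Ppbp, which encodes a platelet chemokine, was at 0.271 FPKM in E14, 1.33 in CJ7, 29.0 in Suz12delta and 5.43 in Eednull ESCs. Pf4, another platelet chemokine gene, was at 1.66, 0.472, 5.32 FPKM and listed at 0, and Lyz2 was at 6.94, 0.551, 21.7 and 0.229 FPKM in the same order. Cd68, another macrophage marker, was instead highest in E14 ESCs, at 11.4, 7.76, 8.46 and 4.28 FPKM in that order. The 8 macrophage markers summed to 19.2, 8.8, 35.3 and 5.2 FPKM in these ESC libraries, and at most 5.2 FPKM at day 5. Relative to E14 ESCs, 4 of the 6 compared were higher in Suz12delta ESCs, and 1 was higher and 2 lower of 4 in Eednull ESCs, where 13.7% of all genes were higher in Suz12delta and 11.5% higher and 9.71% lower in Eednull ESCs. Of those higher, 1 in each line was compared only through the mutant library. At day 5, 3 of 4 were higher in Suz12delta, 2 of 4 in Eednull and 1 of 2 in Suz12GT cells, where 1 of these genes had at least 0.1 FPKM in E14 cells. Over all genes, 20.9%, 16.8% and 13.2% were higher at day 5. Of the markers called higher, 2 in Suz12delta, 1 in Eednull and 1 in Suz12GT cells were compared only through the mutant library. Of the 9 genes described, Runx1 and Flt1 were the ones with their highest ESC values in the Suz12delta library, and the part of macrophage or platelet RNA in these values was not tested.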
